A study of Mus musculus with 10 samples.

Results

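The mouse line RAW264.7, whose cells resemble macrophages, was profiled untreated by RNA sequencing, and the 5 libraries kept in plain medium for 24 h are described here out of 10 libraries in the series. The 5 were taken by their labelled treatment, medium, and numbered replicate 1 to 5 as in the sample titles. All 10 libraries carry the same genotype label (WT) and the same line, and the other 5 received doxorubicin, which is not examined here. The line was raised from a tumour that Abelson murine leukaemia virus induced in a male mouse, and the labels name a tumour as the source and a macrophage as the cell type. The cells grew in minimum essential medium with fetal bovine serum and antibiotics, so the values describe an immortal, dividing line in serum and not a resident macrophage in tissue. Nothing in the labels tells whether the 5 libraries came from separate cultures, and the spread between them may therefore be technical.

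Macrophages are phagocytes that take up particles and dying cells, digest them in lysosomes and report on them through cytokines and antigen presentation. Their identity rests on the transcription factor PU.1, on the receptor for colony stimulating factor 1, and on receptors for microbes, antibody-coated targets and lipoproteins. Resident macrophages of liver, lung, brain, spleen and peritoneum each add their own genes to this common set, and classical (interferon and endotoxin) or alternative (interleukin 4) stimulation switches on further programmes.

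The values are FPKM, fragments per kilobase of transcript, scaled by the mapped fragments of each library, so levels of different genes are set side by side per length. The deposited table gave no read totals. With the depth unknown, values carry no interval for counting error and no lower limit of detection. FPKM values added up to between 342812 and 349685 in each library. Of 22186 genes, 8955 to 9125 had a value of 0 in a library. Replicate 1 stood apart from the other 4 libraries. Its median absolute difference from another library was 0.298 to 0.334 on the log2(FPKM + 1) scale over the 9842 genes averaging 1 FPKM or more, and 433 to 723 of these genes differed by more than 1 log2 unit. Replicates 2 and 3 (median difference 0.0599) and replicates 4 and 5 (0.0547) formed close pairs with 3 such genes each, and a library of one pair differed from a library of the other by 0.135 to 0.159. No nonzero value was equal in any pair of libraries, and 1212 to 1233 genes were above 0 in only 1 library of a close pair, so the close pairs were not the same column deposited again. Whether their differences exceed sampling noise could not be tested without counts, and all 5 libraries were kept as separate. Means are given ± SD over the 5 libraries (n = 5), and the value without replicate 1 stands beside a mean that it moves by more than 1.5 times.

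Expression covered a minority of the genes in the table. A level of at least 1 FPKM in all 5 libraries was reached by 9532 of 22186 genes (43.0%), and 7540 genes were listed at 0 in all 5. A further 603 genes reached 1 FPKM in some libraries only, 144 of them in replicate 1 alone and 107 in every library but replicate 1. Among genes averaging 1 FPKM or more the median was 12.9 FPKM, and the quartiles were 5.52 and 29.1 FPKM. Only 24 genes averaged at least 1000 FPKM, and they held 15.2% ± 2.20 (SD, n = 5) of the summed FPKM. The 552 genes of 100 to 1000 FPKM held 34.2% and the 5158 genes of 10 to 100 FPKM held 44.5%, the largest share of any class.

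**Figure D1:**
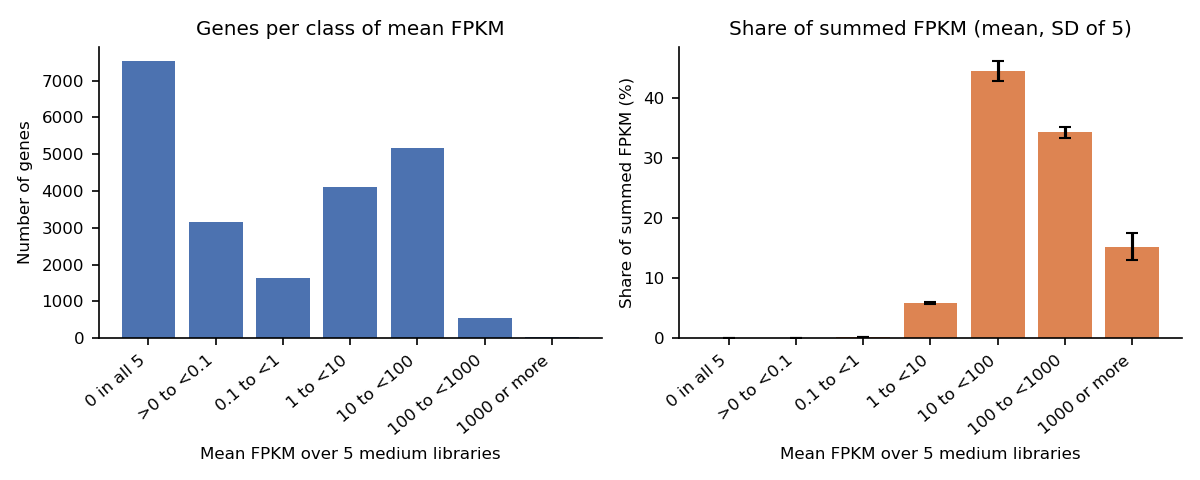
Left, the number of genes in each class of mean FPKM over the 5 medium libraries. Right, the share of the summed FPKM that each class holds in percent, as the mean of 5 libraries with an error bar of 1 SD; the 5158 genes of 10 to 100 FPKM hold 44.5% and the 24 genes at or above 1000 FPKM hold 15.2%.

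By the deposited values, the most abundant transcripts came from iron storage, translation, glycolysis, the mitochondrial genome, protein folding and the cytoskeleton. Genes with ribosomal protein symbols and part of the mitochondrial genome had low values, given below. The cause was not tested, and orders and shares of the summed FPKM throughout depend on those values. The most abundant gene took 2.92% ± 1.30 of the summed FPKM, the first 10 took 10.0% ± 2.24 and the first 100 took 26.3% ± 2.27. In the first 10 replicate 1 held 13.96% and the other libraries 8.55% to 9.37%. Fth1, the ferritin heavy chain gene, led with 18229, 7515, 7353, 8653 and 8783 FPKM in replicates 1 to 5, a mean of 10106 ± 4586 (SD, n = 5). Replicate 1 lay above the other 4, which spanned 7353 to 8783 FPKM. Eef1a1, a translation elongation factor, followed at 5981 ± 490.3 FPKM, and its 5 values (6294, 5589, 5323, 6405 and 6294) lay below every value of Fth1. COX1, a mitochondrially encoded subunit of cytochrome c oxidase, came next at 4296 ± 266 FPKM with all 5 values (3924, 4669.8, 4245, 4345 and 4298) below those of Eef1a1. Gapdh, the glycolytic glyceraldehyde phosphate dehydrogenase, reached 5031, 2627, 2557, 2690.5 and 2621 FPKM, again with replicate 1 above a narrow group of the other 4. Pkm (pyruvate kinase, 2259 ± 389 FPKM), Ftl1 (ferritin light chain, 2130.2 ± 714), Eno1 (enolase, 1928 ± 369.6), Ldha (lactate dehydrogenase, 1627 ± 299.7), Aldoa (aldolase, 1621 ± 569) and Eef2 (elongation factor, 1569 ± 177) completed the first 10.

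Below these, neighbours in the order were mostly not separated by their spread. The ranges of 27 of the 29 neighbouring pairs among the first 30 genes overlapped, and in 8 pairs the higher gene was higher in each of the 5 libraries. The next genes were Npm1, a nucleolar histone chaperone (1559.6 ± 97.6 FPKM), Rack1, a ribosome-bound scaffold (1453 ± 108), Ppia, the cyclophilin gene (1429 ± 78.0), and ND1 of the mitochondrial respiratory complex I (1396 ± 442). Gpnmb, a transmembrane glycoprotein of lysosomes and of lipid-laden macrophages, was the most abundant gene of the macrophage identity list, with 2160.0, 1086, 1075, 1333 and 1324 FPKM (mean 1396 ± 445). Mif, the macrophage migration inhibitory factor gene, averaged 1239 ± 134 FPKM, highest in replicate 1 at 1475 and 1153 to 1223 elsewhere. Cytoskeletal genes followed with Actb (1333 ± 174 FPKM), Vim (1120.4 ± 58.9) and Cfl1 (858 ± 78.5), and the chaperone genes Hsp90ab1 (1310.2 ± 65.0) and Hspa8 (1094 ± 301) lay among them. Ctsd (969 ± 394 FPKM) and Ctsz (777 ± 35.4), both lysosomal cathepsins, were also within the first 30. The remaining members of the 30 were Ptma, CYTB, Eif5a, Pgk1, Fau, Atp5b and the predicted locus LOC118568312. That locus averaged 954 FPKM, with 2879.9 in replicate 3 and 412 to 555 in the other libraries. Each library shared 24 (replicate 1) to 29 of its own first 30 genes with the order by the mean.

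**Figure D2:**
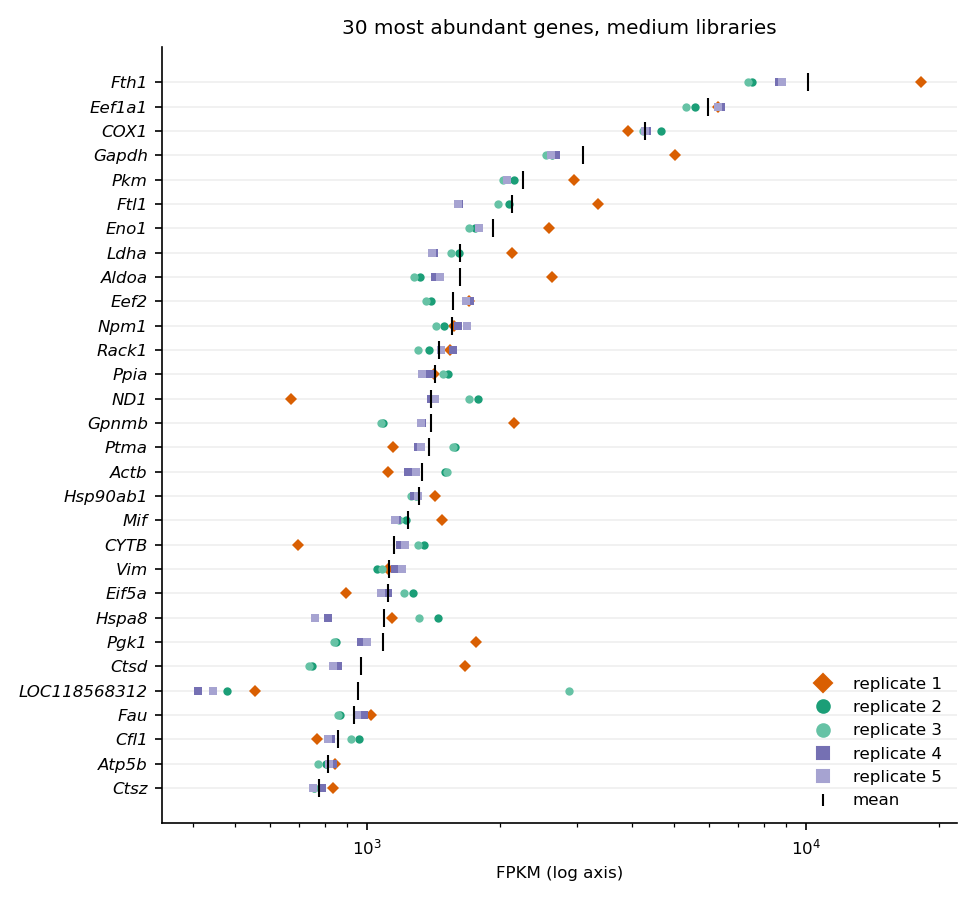
FPKM of the 30 genes with the highest mean, on a log axis, with a point for each of the 5 medium libraries and a black bar for the mean. Fth1 reaches 18229 FPKM in replicate 1 and 7353 to 8783 in the other libraries, and most neighbouring genes overlap.

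Not every gene that a dividing cell uses abundantly was high in the table. The 18 translation factors all reached 1 FPKM in each library, with a median of 267 FPKM, whereas 81 genes with symbols of cytosolic ribosomal proteins had a median of 5.49 FPKM and 74 of them reached 1 FPKM throughout. The highest of the 81 was Rpl12 at 43.5 ± 5.78 FPKM, and Rps6, a small subunit protein, had 4.94, 5.57, 5.13, 6.29 and 7.51 FPKM. The 78 genes with symbols of mitochondrial ribosomal proteins had a median of 0.738 FPKM with 10 at or above 1 FPKM in every library, and the 7 kinase genes whose symbols begin with Rps6k lay between 0.0941 and 0.568 FPKM. Some subunits of these ribosomes that carry other symbols were far higher, although not every such subunit was. Fau, whose product is cleaved to the small subunit protein S30, averaged 934 ± 71.7 FPKM, Rack1 1453 ± 108, and Dap3 of the mitochondrial small subunit 81.0 ± 4.15. A similar contrast lay within the mitochondrial genome. COX1 (4296 FPKM), ND1 (1396) and CYTB (1151) were high, while COX2 (20.3, 28.2, 25.4, 20.6 and 39.5 FPKM), ATP8 (37.2), ATP6 (33.6), COX3 (23.8), ND3 (2.15) and ND4L (10.1) were low. COX1 exceeded COX2 169-fold on average, and a near-identical nuclear copy of part of the mitochondrial genome makes the low values uncertain. These groups were picked after their values were seen, the cause of the low values was not tested, and no statement on ribosomal protein levels is drawn from them.

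The labelled cell type was set beside its markers, and macrophage identity genes were expressed as a group. The list was made with earlier results of these data known, so it gives no independent check of identity. All genes, the comparator here, include families of sensory receptors listed mostly at 0. Of 26 macrophage identity genes, 23 reached 1 FPKM in all 5 libraries (88.5%, against 43.0% of all genes), and their median was 103 FPKM against 0.177 for all genes of the table. Csf1r, the receptor for colony stimulating factor 1, had 101, 83.2, 80.7, 91.1 and 85.2 FPKM (mean 88.3 ± 8.25). Adgre1, which encodes the F4/80 antigen, had 136, 138, 135, 156 and 158 FPKM (145 ± 11.4), and its libraries differed little. Itgam, the CD11b integrin chain, averaged 50.8 ± 8.57 FPKM. Cd68, a lysosomal glycoprotein gene, reached 609, 426, 416, 418 and 448 FPKM, and replicate 1 was again the highest. Cd14, the endotoxin co-receptor gene, went the other way, with 17.9 FPKM in replicate 1 and 36.7 to 39.5 in the other 4. Lysozyme came almost wholly from Lyz2 (471 ± 32.7 FPKM), with 0.137 FPKM for Lyz1, although the similarity of this gene pair leaves the split uncertain. Lgals3, the galectin 3 gene (645 ± 136 FPKM), the signalling adaptors Tyrobp (396 ± 24.1) and Fcer1g (270.1 ± 23.2), the cysteine protease Ctss (328 ± 27.3) and the lysosomal membrane gene Laptm5 (246 ± 21.1) were the other members above 200 FPKM. Sirpa, the receptor for the signal CD47 (169 ± 24.6 FPKM), Trem2, a lipid-sensing receptor (162 ± 12.5), Cd53 (119 ± 27.1) and Cd52 (117 ± 21.3) lay between 100 and 200 FPKM, and Cd300a (87.3 ± 6.34), Mpeg1, encoding the pore-forming perforin 2 (84.2 ± 7.27), Itgb2 (70.1 ± 15.7), the pan-leukocyte phosphatase Ptprc (60.9 ± 5.52), Cd48 (40.2 ± 2.66), Fcgr1 (22.7 ± 5.43) and Aif1 (4.23 ± 1.63) below them. Only 3 identity genes stayed under 1 FPKM in every library. They were Mertk, the receptor tyrosine kinase for apoptotic cells (0.628, 0.177, 0.264, 0.278 and 0.239 FPKM), Ly86, which encodes the partner of the receptor RP105 (0.0182 FPKM), and Adgre4 (0.00461 FPKM).

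**Figure D3:**
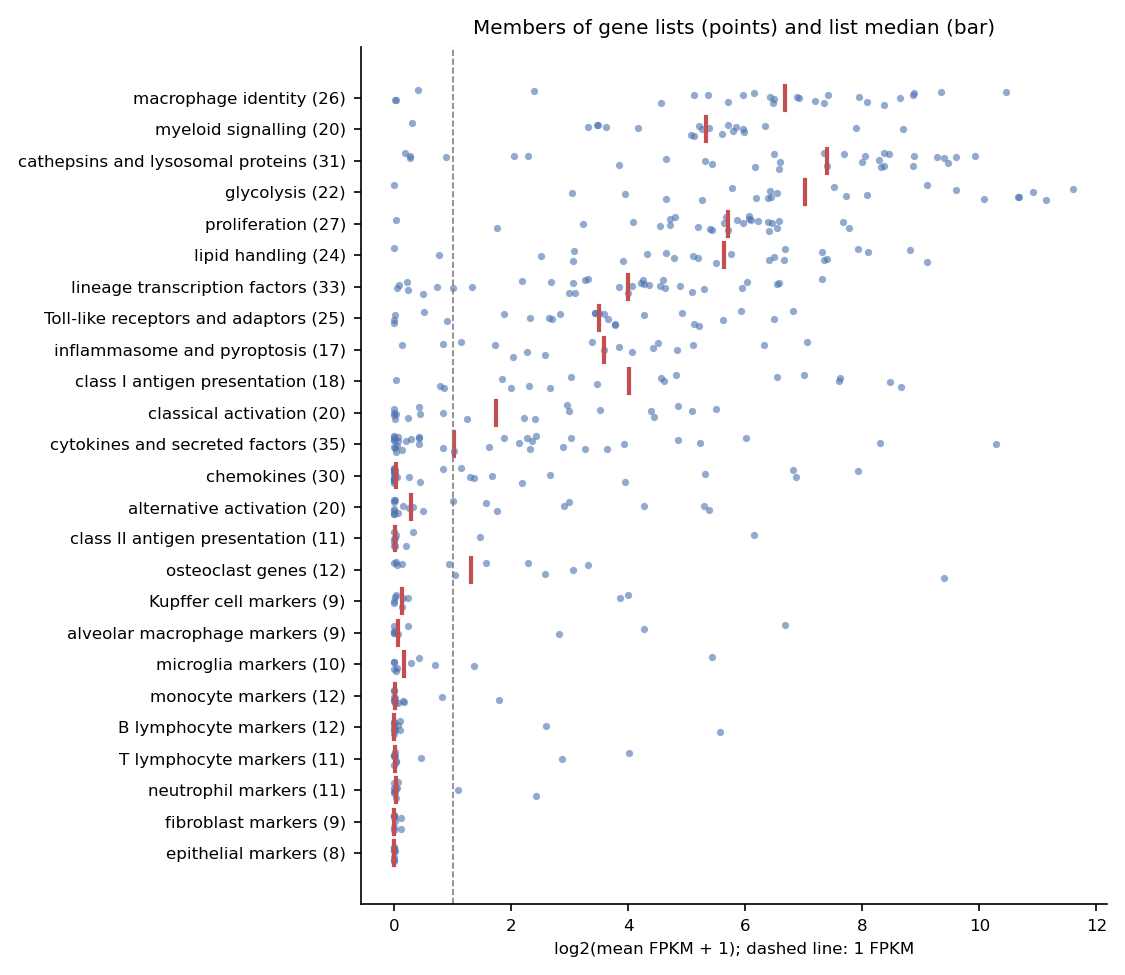
Each point is the mean of a gene over the 5 medium libraries, as log2(FPKM + 1), by gene list with the number of listed genes in brackets; the red bar is the list median and the dashed line marks 1 FPKM. Macrophage identity (median 103 FPKM), lysosomal (168) and glycolytic genes (137) lie to the right, and markers of fibroblasts and epithelium lie at or near 0.

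The transcription factors known to set the macrophage lineage were mostly present. Of 33 listed, 25 reached 1 FPKM in every library (75.8%, against 43.0% of all genes), with a median of 15.0 FPKM. Spi1, which encodes PU.1, was the highest with 106, 174, 173, 166 and 171 FPKM (mean 158 ± 29.4), and replicate 1 lay below the other 4. Cebpb, a factor of the inflammatory response, averaged 94.7 ± 22.1 FPKM, while its relative Cebpa of early myeloid commitment had 0.713, 0.578, 0.631, 0.559 and 0.816 FPKM. Mitf, a regulator of lysosomal genes and of osteoclasts, had 129.6, 69.5, 69.7, 94.5 and 95.4 FPKM (91.7 ± 24.7), far above its relatives Tfe3 (22.2 ± 3.18), Tfeb (7.27 ± 3.81) and Tfec (0.169 ± 0.132). Irf8, an interferon regulatory factor of monocytes, was at 41.8 FPKM in replicate 1 and 10.5 to 13.6 in the others. Bhlhe40 averaged 60.4 ± 62.5 FPKM and 32.5 ± 5.70 without replicate 1. Nfe2l2, the oxidative stress factor NRF2, stood at 64.5 ± 4.56 FPKM, and Stat6 (38.1 ± 1.20), Irf5 (32.8 ± 4.40), Bach1 (28.5 ± 4.83), Klf6 (23.6 ± 5.67), Nr1h2 (23.1 ± 1.93), Zeb2 (19.4 ± 2.64), Pparg (18.1 ± 3.59), Fli1 (17.6 ± 2.38), Ets2 (15.8 ± 3.89) and Nr1h3 (15.0 ± 3.38) all exceeded 10 FPKM. Batf3 (8.60 ± 0.944 FPKM), Klf2 (7.54 ± 3.23), Runx1 (6.87 ± 0.902), Id2 (5.36 ± 3.75) and Maf (3.54 ± 0.640) were lower. Klf4 (0.289, 1.23, 1.23, 2.27 and 2.50 FPKM) and Irf4 (1.76, 0.774, 0.851, 0.737 and 0.939 FPKM) crossed 1 FPKM in part of the libraries only. Members below 1 FPKM throughout were Cebpa, Egr2 (0.403 FPKM), Tfec, Rxra (0.155), Egr1 (0.0512) and Runx3 (0.0259).

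Receptors for growth factors and cytokines covered most of the classes that macrophages respond to. At 1 FPKM throughout were 84.6% of those listed, beside 43.0% of all genes. Of 26 listed, 22 reached 1 FPKM in all libraries, with Csf1r highest, followed by Il10rb (56.7 ± 8.52 FPKM), the interferon gamma receptor chain Ifngr2 (51.7 ± 12.4), the tumour necrosis factor receptor Tnfrsf1b (51.2 ± 5.67), the interferon alpha receptor chain Ifnar2 (38.1 ± 6.98) and the other tumour necrosis factor receptor Tnfrsf1a (30.4 ± 3.48). Tnfrsf1b was above Tnfrsf1a in each of the 5 libraries, 1.69-fold on average. The ligand Csf1 itself had 4.60, 2.32, 2.65, 5.27 and 4.99 FPKM, and Csf1r exceeded it 24.5-fold (range 17.1 to 35.9). Flt3 and Il18r1 were listed at 0, and the interleukin 1 receptor genes Il1r1 (0.272 FPKM) and Il1r2 (0.0150) stayed below 1 FPKM although the shared chain Il1rap had 3.14 ± 0.401 FPKM. Receptors for chemoattractants were sparse by comparison, with 11.1% of those listed at 1 FPKM throughout, beside 43.0% of all genes. Only 2 of 18 reached 1 FPKM in all 5 libraries, C3ar1 and C5ar1, the receptors of the complement fragments of C3 and C5, and without replicate 1 the count was 7. C3ar1 had 34.6, 68.8, 70.3, 69.1 and 70.7 FPKM and C5ar1 8.79, 9.73, 11.6, 8.77 and 10.03 FPKM. Ccr1 (0.632, 1.95, 2.55, 3.5 and 4.06 FPKM), the formyl peptide receptors Fpr1 (0.419, 2.50, 3.15, 2.82 and 2.46) and Fpr2, C5ar2 and Cxcr3 were at least 1 FPKM in replicates 2 to 5 and below it in replicate 1. The monocyte receptor gene Ccr2 averaged 0.0469 FPKM and Ccr7 0.00875.

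Receptors for antibody-coated and other particles were present, with clear gaps. Among 11 Fc and complement receptor genes, 9 reached 1 FPKM throughout (81.8%, beside 43.0% of all genes). The Fc receptor chains Fcgr3 (32.6, 23.3, 22.5, 33.7 and 33.1 FPKM), Fcgr1 (22.7 ± 5.43), Fcgr4 (12.2 ± 1.39) and the inhibitory Fcgr2b (10.4 ± 3.49) lay within a few-fold of each other, and Fcgr3 was above Fcgr2b in all 5 libraries. Itgax, the CD11c chain, had 0.302, 0.317, 0.461, 0.493 and 0.443 FPKM against 60.6, 40.4, 43.4, 53.1 and 56.3 FPKM for Itgam, and Vsig4 was listed at 0. Scavenger and uptake receptors reached 1 FPKM in 8 of 16 cases (50%, beside 43.0% of all genes). Cd36, a fatty acid and oxidised lipoprotein receptor, led with 196, 171, 169, 127 and 125 FPKM, followed by Lrp1 (100.0 ± 9.47), Scarb1 (65.7 ± 7.88), Colec12 (29.3 ± 3.25) and Scarb2 (17.6 ± 2.99). Marco, a receptor for bacteria, was at 20.5 FPKM in replicate 1 and 2.24 to 2.49 in the others, a mean of 5.99 ± 8.09 with replicate 1 and 2.38 ± 0.103 without it. The mannose receptor gene Mrc1 had 0.278, 0.202, 0.239, 0.305 and 0.222 FPKM, and the haemoglobin scavenger receptor gene Cd163 and Clec4f were listed at 0. For the uptake of dying cells, the downstream genes Rac2 (135 ± 28.0 FPKM), Rac1 (113 ± 8.53), Dock2 (38 ± 3.81) and Elmo1 (28.1 ± 2.98) and the bridging protein gene Mfge8 (49.7 ± 15.7) with its integrin chains Itgb5 (34.0 ± 7.31) and Itgav (22.2 ± 2.29) were all present. The receptor kinases of this process were low, with Mertk at 0.317, Axl at 0.0255 and Tyro3 at 0.00212 FPKM, and their ligand gene Gas6 was listed at 0 while the other ligand gene Pros1 had 2.46 ± 0.702 FPKM.

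Signalling genes of the myeloid lineage were expressed almost throughout, and the surface receptor lists less completely. Of 24 inhibitory and activating myeloid receptors 18 reached 1 FPKM throughout, among them Lilrb4a (88.6 ± 18.1 FPKM), Cd33 (32.9 ± 5.62), Clec12a (21.5 ± 4.52) and Siglece (15.4 ± 4.35). Trem2 was high at 157, 177, 173, 155 and 148 FPKM, while the inflammatory receptor gene Trem1 had 0, 0.367, 0.345, 0.156 and 0.183 FPKM. Of 20 myeloid signalling genes 19 reached 1 FPKM in every library, led by the GTPase dissociation inhibitor Arhgdib (415 ± 31.9 FPKM), the phosphatase Ptpn6 (236 ± 23.8), the adaptor Pik3ap1 (79.4 ± 6.72) and the kinase Syk (61.7 ± 9.25). The exception was Fgr, a Src family kinase, at 0.246, 0.157, 0.127, 0.326 and 0.269 FPKM, where its relative Lyn (56.1 ± 9.33) was expressed. Integrins reached 1 FPKM in 10 of 23 cases (43.5%), about the share of all genes (43.0%). The fibronectin receptor chains Itgb1 (90.04 ± 3.21 FPKM), Itga5 (23.1 ± 4.14) and Itga4 (18.5 ± 5.72) were present, as were Itgb2 and Itgam, and Itgb7 had 31.3, 33.7, 31.0, 35.6 and 35.9 FPKM, while Itga3, Itgb6 and Itgb8 were listed at 0.

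Sensors of microbes were expressed selectively. Of 25 Toll-like receptor and adaptor genes 20 reached 1 FPKM in all libraries (80.0%, against 43.0% of all genes), with a median of 10.3 FPKM. Tlr2, the receptor for bacterial lipoproteins, led the receptors with 49.0 FPKM in replicate 1 and 93.8 to 104 in the others. Tlr4, the endotoxin receptor, had 7.88, 13.2, 13.3, 14.6 and 14 FPKM, also lowest in replicate 1, and its co-receptors Cd14 (33.8) and Ly96 (5.27 ± 0.422) were present. Cd180, a receptor-like relative, was at 48.1 ± 8.81 FPKM with its partner Ly86 near 0. The nucleic acid receptors Tlr13 (11.5 ± 2.50 FPKM), Tlr9 (11.0 ± 2.04) and Tlr7 (10.3 ± 0.694) were close to each other, and Unc93b1, which escorts them to endosomes, reached 109, 101, 107, 120.4 and 120.0 FPKM. Tlr6 (6.10 ± 1.45 FPKM), a partner of Tlr2, exceeded Tlr1 (3.98 ± 0.263) in all 5 libraries. Tlr8 had 0.604, 1.23, 1.14, 0.573 and 0.734 FPKM, above 1 only in replicates 2 and 3, and Tlr3, the receptor for double-stranded RNA, 0.152, 0.486, 0.557, 0.450 and 0.427 FPKM. Tlr5 averaged 0.00209 FPKM, and Tlr11 and Tlr12 were listed at 0. Among the adaptors and kinases, Irak3, an inhibitor of the pathway (59.9 ± 13.7 FPKM), exceeded on average Myd88 (36.0 ± 9.84), Irak2 (29.2 ± 9.25), Irak1 (18.3 ± 0.896), Ticam2 (12.7 ± 4.40), Irak4 (9.72 ± 0.571), Ticam1 (9.71 ± 5.94), Traf6 (5.49 ± 1.67) and Tirap (2.64 ± 0.792). Lectin and cytosolic sensors reached 1 FPKM in 10 of 14 cases (71.4%, against 43.0% of all genes). The mycobacterial lectin receptor genes Clec4d (118 ± 17.4 FPKM) and Clec4e (28.3 ± 3.24) were high, and the fungal receptor genes Clec7a (1.96 ± 0.495) and Clec4n (0.474 ± 0.291) low. Sting1 (15.9 ± 1.91 FPKM), Cgas (6.67 ± 2.07) and Mavs (18.8 ± 3.2) were present, Ifih1 was at 0.237, 0.576, 0.654, 0.498 and 0.566 FPKM, and Zbp1 was listed at 0.

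The inflammasome set was nearly complete at the RNA level. Of 17 genes 14 reached 1 FPKM in every library (82.4%, against 43.0% of all genes). RAW264.7 cells are widely described as lacking the adaptor protein ASC, and its gene Pycard had 49.0, 28.4, 29.1, 30.7 and 30.5 FPKM (mean 33.6 ± 8.70). Protein was not measured. The sensors Aim2 (27.5 ± 3.78 FPKM), Nlrp3 (10.9 ± 3.35) and Nlrc4 (4.92 ± 0.506) were present with Casp1 (20.5 ± 1.81), Casp4 (13.3 ± 4.20), the pore gene Gsdmd (21.0, 22.5, 22.2, 21.4 and 21.2), Nek7 (15.6 ± 1.61) and Gsdme (3.07 ± 0.583). The receptor genes Naip2 (9.34 ± 1.61 FPKM) and Naip5 (2.31 ± 0.565) belong to a family of near-identical copies, so the split between them is uncertain. Ninj1, which acts in membrane rupture, averaged 78.4 ± 60.5 FPKM and 51.4 ± 4.54 without replicate 1. Txnip, a thioredoxin-binding protein gene, ran from 29.0 FPKM in replicate 1 through 101 and 121 in replicates 2 and 3 to 199.7 and 206 in replicates 4 and 5. Nlrp1b had 0.896, 1.39, 1.46, 1.19 and 1.11 FPKM. The cytokine substrates were low, with Il18 at 3.83 ± 0.693 FPKM and Il1b at 0.0647, 1.10, 0.826, 0.761 and 1.14 FPKM, and Mefv, the pyrin gene, at 0, 0.121, 0.132, 0.0847 and 0.151 FPKM.

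Lysosomal genes had a higher median level than the macrophage identity list. Of 31 listed, 26 reached 1 FPKM in all libraries (83.9%, against 43.0% of all genes) and 17 averaged at least 100 FPKM. The list had a median of 168 FPKM and held 2.27% of the summed FPKM. Ctsd, the aspartic protease cathepsin D, had 1667, 749, 736, 859 and 833 FPKM, with replicate 1 above the other 4. Ctsz (836, 758, 754, 787 and 753 FPKM) varied little, and Ctsb (703 ± 153), Ctsk (674 ± 77.2), Psap, which encodes the saposin precursor (618 ± 182), and Lyz2 followed. Ctsk, the collagen-degrading protease of osteoclasts, reached 557, 756, 725, 688 and 644 FPKM and was lowest in replicate 1. Lgmn (351 ± 51.6 FPKM), Grn (329 ± 44.8), Lamp1 (317 ± 20.4), the inhibitor Cst3 (311 ± 61.2), Ctsa (263 ± 43.0), Cd63 (253 ± 11.7), Ctsl (204 ± 28.2), Lipa (168 ± 20.5) and Gusb (162 ± 23.4) were also above 100 FPKM. The low members were Ctsh (1.74, 0.494, 0.829, 0.643 and 0.462 FPKM), Ctsf (0.209), Ctse (0.204), Lyz1, and Acp5, the tartrate-resistant phosphatase, which had 0.230 FPKM in replicate 1 and 4.10 to 5.40 in the others.

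Lysosomal genes of high level had promoter windows of unlike sequence. Promoter windows, 250 bases before to 50 after the start, came from RefSeq on GRCm38.p6 and were matched by symbol to 17387 genes, and the 250 bases before the start were searched on both strands for CACGTG, the core of the element that the MITF and TFEB family binds. CACGTG lay in 7.64% of all promoters, in 11.0% of those at 10 to 100 FPKM and in 14.3% of those at 100 to 1000 FPKM. It lay in 6 of 25 lysosomal promoters (24.0%), those of Ctsa, Ctsd, Ctsf, Ctsl, Lamp1 and Lgmn. Ctsf was a low member of the list, so the string was not confined to genes of high level. The starts are annotated ones, and whether these cells used them was not tested. Nor was the effect on these shares of genes with several annotated starts. A match is a string of letters and not a bound site. Ctsd has 2 such strings and 27 CG dinucleotides, Ctsl has 1 string and 7 CG, and Ctsk has neither. They are shown because all 3 genes averaged over 200 FPKM, with CACGTG in capitals for Ctsd (chr7:142387828-142388077, minus strand) and Ctsl (chr13:64370521-64370770, minus strand). The window of Ctsk (chr3:95498960-95499209, plus strand) holds no capitals because it has neither CACGTG nor CG to mark.
Ctsd: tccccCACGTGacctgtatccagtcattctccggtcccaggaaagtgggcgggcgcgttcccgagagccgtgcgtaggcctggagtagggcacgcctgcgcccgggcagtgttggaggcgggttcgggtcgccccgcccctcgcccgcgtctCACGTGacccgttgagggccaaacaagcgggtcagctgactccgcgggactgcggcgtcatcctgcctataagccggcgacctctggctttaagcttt
Ctsl: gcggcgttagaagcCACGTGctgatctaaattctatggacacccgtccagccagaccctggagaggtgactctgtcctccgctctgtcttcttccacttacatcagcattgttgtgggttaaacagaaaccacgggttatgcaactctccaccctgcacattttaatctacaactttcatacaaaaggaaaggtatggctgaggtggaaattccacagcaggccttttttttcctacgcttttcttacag
Ctsk: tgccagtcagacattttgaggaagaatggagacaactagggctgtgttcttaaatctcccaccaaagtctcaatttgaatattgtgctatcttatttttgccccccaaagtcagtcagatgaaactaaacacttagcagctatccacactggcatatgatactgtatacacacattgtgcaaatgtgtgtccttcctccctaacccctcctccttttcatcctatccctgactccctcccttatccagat

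The respiratory burst machinery was expressed in full, and the inducible nitric oxide synthase was present beside it. The membrane subunits Cyba (406 ± 59.1 FPKM) and Cybb (54.2, 50.7, 52.4, 53.4 and 53.4 FPKM) and the cytosolic subunits Ncf1 (154 ± 21.5), Ncf4 (85.5 ± 6.69) and Rac2 were all above 10 FPKM, and Cybb varied least of them across the libraries. Hvcn1, the proton channel that sustains the burst, averaged 11.0 ± 8.66 FPKM and 7.21 ± 1.51 without replicate 1. The other oxidase genes were low, with Nox1 at 0.190 FPKM and Nox4 listed at 0. Nos2, the inducible nitric oxide synthase, had 53.5, 13.1, 10.02, 12 and 11.2 FPKM, a mean of 19.96 ± 18.8 and of 11.6 ± 1.29 without replicate 1. Arg1, the arginase that competes for the same substrate, had 6.5, 0.435, 0.718, 1.13 and 0.966 FPKM, a mean of 1.95 ± 2.56 and of 0.813 ± 0.305 without replicate 1. Nos2 was above Arg1 in all 5 libraries, 14.9-fold on average with a range of 8.23 to 30.02, and both were highest in the same library. The cofactor gene Gch1 (22.1 ± 6.68 FPKM) and the arginine recycling genes Asl (23.5 ± 7.81) and Ass1 (4.97 ± 0.979) were present, while Arg2, Nos1 and Nos3 averaged 0.208, 0.114 and 0.0284 FPKM.

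Genes of both stimulated states were partly expressed. Of 20 classical activation genes 10 reached 1 FPKM in every library, with a median of 2.51 FPKM, and of 20 alternative activation genes 6 did, with a median of 0.222 FPKM. These shares were 50% and 30%, beside 43.0% of all genes in the table. On the classical side, Acod1, which makes itaconate, had 57.5, 39.0, 42.1, 41.1 and 41.9 FPKM, Irf5 32.8 ± 4.40, and Tnf 14.8, 30.5, 34.1, 28.7 and 31.7 FPKM with replicate 1 lowest. The costimulators Cd86 (20.7 ± 4.86 FPKM), Cd80 (10.4 ± 3.54) and Cd40 (6.87 ± 2.43), the interferon factor Irf1 (6.71 ± 1.01), Socs3 (4.27 ± 1.21) and the prostaglandin synthase Ptgs2 (4.69, 1.30, 1.53, 4.94 and 5.83) were also present. Fpr2 had 0.266, 1.53, 1.67, 1.83 and 1.56 FPKM. Il1b, Gpr18 (0.361 FPKM), Il6 (0.139, 0.0589, 0.282, 0.473 and 0.753), Gbp2 (0.172), Gbp5 (0.0196) and Ciita (0.00666) were low, and Il12b, Ido1 and Cd38 were listed at 0. On the alternative side, Tgm2, a transglutaminase, had 64.0, 38.3, 37.3, 30.8 and 31.7 FPKM, and Hmox1, haem oxygenase 1, was at 82.2 FPKM in replicate 1 and 24.5 to 29.0 in the others. Pparg (18.1 ± 3.59 FPKM), Clec10a, a galactose lectin (8.36, 6.20, 6.78, 6.63 and 6.70), Il4ra (6.49 ± 1.47) and Myc (4.65, 1.05, 1.37, 2.01 and 2.67) were present. Apart from Arg1 and Irf4, the rest were under 1 FPKM, with Egr2, Mrc1, Ccl22 (0.194), Pdcd1lg2 (0.110), Alox15 (0.0380) and Ccl24 (0.00698) above 0 and Retnla, Chil3, Mgl2, Ccl17, Fn1 and Cd163 listed at 0.

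**Figure D4:**
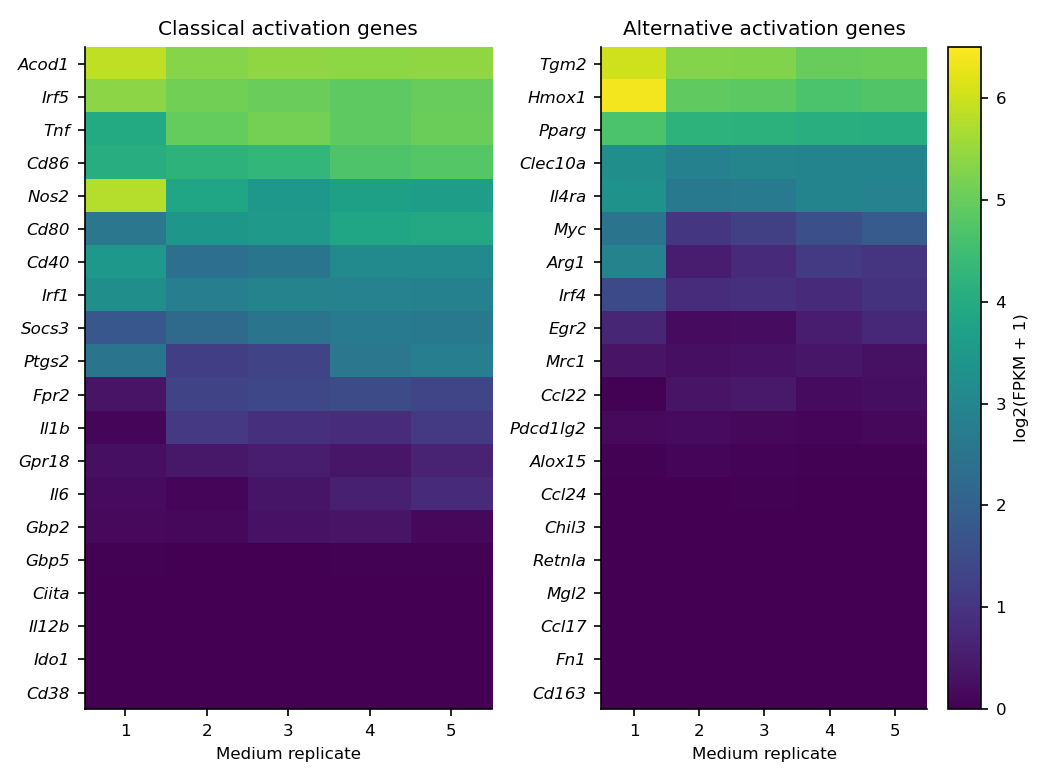
Level of each classical (left) and alternative (right) activation gene in each medium library, as log2(FPKM + 1) by colour, ordered by mean. Acod1, Irf5, Tnf, Tgm2 and Hmox1 are bright in all 5 libraries, Nos2 and Hmox1 are brightest in replicate 1, and the lower rows of both panels are at or near 0.

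Of 30 chemokine genes 9 reached 1 FPKM throughout, beside 43.0% of all genes, and 12 were listed at 0 in all libraries. Ccl3 (254, 208, 213, 264.6 and 272 FPKM) and Ccl4 (58.7, 22.0, 28.4, 40.6 and 43.8 FPKM), chemokine ligands of leukocyte receptors, lie close in sequence, and Ccl3 was above Ccl4 in each library, 6.80-fold on average. Ccl2, the monocyte attractant, had 54.0, 88.1, 111, 153 and 174 FPKM, lowest in replicate 1 and highest in replicates 4 and 5. Ccl9 was at 56.2 FPKM in replicate 1 and 119.7 to 130.4 elsewhere. Cxcl2, a neutrophil attractant, followed the library pairs, with 2.89 and 4.02 FPKM in replicates 2 and 3, 23.5 and 31.7 in replicates 4 and 5, and 10.01 in replicate 1. Ccl7 had 2.76, 2.65, 3.35, 8.03 and 9.98 FPKM with the same grouping of replicates 4 and 5 above the others. The interferon-induced chemokine gene Cxcl10 had 0.849, 0.659, 0.882, 0.698 and 0.752 FPKM, and Cxcl9, Cxcl1, Cxcl12 and Ccl17 were among those listed at 0, together with Ccl1, Ccl8, Ccl11, Ccl19, Ccl20, Cxcl5, Cxcl13 and Ppbp. Among 35 cytokine and secreted factor genes, 16 reached 1 FPKM in every library (45.7%), a share near that of all genes. After Mif came Spp1, which encodes osteopontin, with 341, 263, 256, 337 and 370.4 FPKM, then Tgfb1 (63.1 ± 8.13), Vegfa, Tnf and Tnfsf9 (14.2 ± 3.51). Vegfa, the endothelial growth factor, averaged 36.5 ± 32.5 FPKM and 22.1 ± 5.27 without replicate 1. The interleukin 1 antagonist gene Il1rn (7.07 ± 2.82 FPKM) exceeded Il1a (2.06 ± 1.34) on average, although replicate 1 had 2.47 against 4.25 FPKM. Il10 (0.137, 0.248, 0.309, 0.441 and 0.523 FPKM), Il23a (0.148) and Il27 (0.0376) were low, and Il12a, Il12b, Ifnb1, Ifng and Il13 were listed at 0. Complement genes reached 1 FPKM in 3 of 15 cases, Cfp, the properdin gene (41.7, 47.6, 53.2, 53.7 and 58.8 FPKM), C3 (17.4, 26.5, 26.5, 39.3 and 39.5 FPKM) and C1qb (4.67, 2.87, 3.31, 2.09 and 2.35 FPKM). The other chains of C1q differed from C1qb, with C1qc at 1.45 ± 0.522 and C1qa at 0.105, 0.320, 0, 0.115 and 0.132 FPKM. C6, Cfd and Hc were listed at 0.

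Antigen presentation was split between its classes. Of class I genes 83.3% and of class II genes 18.2% reached 1 FPKM throughout, beside 43.0% of all genes. Of 18 class I genes 15 reached 1 FPKM throughout, with B2m at 421, 389, 395, 386 and 423 FPKM, H2-D1 at 104, 130.2, 138, 132 and 134 FPKM and H2-K1 at 92.6 ± 11.0 FPKM. The chaperones Calr (288, 498, 465, 264 and 259.5 FPKM), Pdia3 (195 ± 37.3) and Canx (192 ± 13.4) were also high, with Calr following the library pairs. The peptide transporter genes Tap1 (2.99 ± 0.119 FPKM) and Tap2 (5.28 ± 0.998) were lower, and the class I regulator Nlrc5 had 0.466, 0.808, 0.906, 0.646 and 0.798 FPKM. Of 11 class II genes 2 reached 1 FPKM, the invariant chain gene Cd74 (41.7, 62.5, 64.2, 88.4 and 93.1 FPKM) and H2-Oa (2.01, 1.58, 1.37, 2.11 and 1.76 FPKM). The antigen-binding chain genes H2-Aa and H2-Ab1 were listed at 0 with H2-Eb2 and H2-Ob, H2-Eb1 averaged 0.00575 FPKM, and the class II regulator gene Ciita 0.00666 FPKM. Costimulation and checkpoint genes reached 1 FPKM in 14 of 18 cases (77.8%, against 43.0% of all genes). Cd47 (61.5 ± 9.81 FPKM), Vsir, which encodes VISTA (24.0 ± 10.03), Cd86, Pvr (15.8 ± 2.67), Tnfsf9 and Cd274, which encodes PD-L1, led after Sirpa. Cd274 averaged 11.4 ± 8.60 FPKM and 7.53 ± 1.08 without replicate 1, and Pdcd1lg2, which encodes PD-L2, had 0.119, 0.151, 0.0990, 0.0858 and 0.0958 FPKM. Tnfsf4 and Vsig4 were listed at 0.

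Averaged over the 5 libraries glycolysis held the largest share of the summed FPKM among the 52 gene lists, an order that rests on replicate 1, since in each of the other libraries the translation factors summed to more. Of 22 glycolysis genes 21 reached 1 FPKM in all libraries (95.5%, against 43.0% of all genes). The list had a median of 137 FPKM and 4.09% of the summed FPKM, and replicate 1 had the highest sum. Slc2a1, the glucose transporter GLUT1, was at 453 FPKM in replicate 1 and 132 to 172 in the others. The hexokinase genes Hk3 (85.5 ± 21.3 FPKM), Hk2 and Hk1 (37.1 ± 14.4) were all present, and Hk2 averaged 84.1 ± 68.1 FPKM with replicate 1 and 53.7 ± 2.22 without it. The lactate exporters Slc16a3 (183 ± 18.2 FPKM) and Slc16a1 (82.7 ± 20.8) accompanied Ldha, while Ldhb, the other lactate dehydrogenase subunit, was listed at 0 in all 5 libraries. Its promoter is shown because it holds more CG than the median promoter although the gene was listed at 0, with its 14 CG dinucleotides in capitals (chr6:142507958-142508207, minus strand, GRCm38.p6). The median promoter held 10 CG in 250 bases, genes listed at 0 held a median of 2, and the glycolysis genes 14.
Ldhb: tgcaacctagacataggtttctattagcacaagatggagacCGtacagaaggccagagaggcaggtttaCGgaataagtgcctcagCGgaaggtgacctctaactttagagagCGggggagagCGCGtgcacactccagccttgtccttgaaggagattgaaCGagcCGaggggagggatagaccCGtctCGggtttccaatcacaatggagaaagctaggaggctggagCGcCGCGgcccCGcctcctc

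Lipid handling genes reached 1 FPKM in 22 of 24 cases (91.7%, against 43.0% of all genes), with a median of 48.6 FPKM. Fabp5, a fatty acid carrier, averaged 552 ± 265.2 FPKM with replicate 1 at 1025, and Fabp4 averaged 101 ± 95.4 and 58.7 ± 4.48 without that library. Plin2, the coat protein of lipid droplets, was steady at 437, 446, 437, 461 and 458 FPKM. Lpl, lipoprotein lipase, had 199, 337, 343, 241 and 236 FPKM and the desaturase gene Scd2 243 ± 67.1, well above Scd1 (14 ± 13.4, and 8.0 ± 1.62 without replicate 1). The cholesterol exporters Abcg1 (33.2 ± 6.86 FPKM) and Abca1 (12.4, 3.69, 4.53, 7.99 and 8.36 FPKM) and the apolipoprotein gene Apoe (35.2, 12.1, 11.5, 18.5 and 17.0 FPKM) were present, and Ch25h averaged 0.000476 FPKM. Among 15 iron genes, 12 reached 1 FPKM (80.0%, against 43.0% of all genes). The ferritin heavy chain exceeded the light chain in each library, with Ftl1 at 0.220 of Fth1 on average. The uptake gene Tfrc, the transferrin receptor, was high (109.9, 187, 182, 177 and 177 FPKM). So was Slc11a1, the phagosomal metal transporter NRAMP1 (121, 85.5, 86.9, 83.2 and 83.0 FPKM). Slc40a1, ferroportin, the only known cellular iron exporter, had 0.212, 0.176, 0.126, 0.161 and 0.109 FPKM.

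Genes of DNA replication and mitosis were expressed at a high level. Of 27 proliferation genes 26 reached 1 FPKM in every library (96.3%, against 43.0% of all genes). The list had a median of 50.8 FPKM, and its sum was lowest in replicate 1. Pcna (165, 269, 251, 204 and 200.4 FPKM), Cdk4 (186, 212, 208, 203 and 200.4 FPKM), Mcm6 (94.5 ± 14.4), Ccnb1 (91.5 ± 17.7), Top2a (86.8 ± 11.5) and Mcm3 (83.7 ± 12.7) led, and Mki67, the marker of cycling cells, had 58.3, 70.5, 68.4, 67.7 and 64.5 FPKM. Among the D cyclins Ccnd1 (18.6, 44.3, 46.3, 32.9 and 34.9 FPKM) and Ccnd3 (26.8 ± 5.72) were expressed and Ccnd2 averaged 0.0152 FPKM. Ccne1 had 5.40, 36.2, 33.2, 18.7 and 17.2 FPKM, with the lowest value in replicate 1 and the highest in replicates 2 and 3. Cell cycle inhibitors and tumour suppressors were present alongside, in 10 of 11 cases (90.9%, against 43.0% of all genes). Trp53 was at 66.8 FPKM in replicate 1 and 104 to 119 in the others, and its regulator Mdm2 at 35.9 ± 2.48. Cdkn1a, encoding p21, was at 42.5, 52.1, 52.1, 54.4 and 54.0 FPKM, Cdkn2c at 14.1 ± 3.17 and Cdkn2a at 3.2, 3.46, 3.76, 4.13 and 3.80 FPKM. Abl1, the cellular gene from which the viral oncogene of the founding virus derives, had 19.0, 12.7, 12.9, 14.4 and 13.5 FPKM, level with its relative Abl2 (14.9, 13.3, 13, 16.0 and 14.8 FPKM). Whether reads of the viral oncogene were counted under Abl1 was not tested. The Y-linked genes Ddx3y (0.345, 0.280, 0.432, 0.390 and 0.386 FPKM), Kdm5d (0.236) and Uty (0.0676) stayed below 1 FPKM and Eif2s3y and Sry were listed at 0, whereas the X-linked relatives Ddx3x (129 ± 33.2 FPKM), Eif2s3x (61.1 ± 3.83), Kdm5c (20.4 ± 1.35) and Kdm6a (4.72 ± 0.497) were expressed. The X-linked relatives were added after the Y-linked values were seen.

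Genes that mark macrophages of particular tissues were mostly absent or low. The shares at 1 FPKM throughout ran from 10.0% of microglia markers to 33.3% of alveolar macrophage markers, beside 43.0% of all genes. Kupffer cell markers reached 1 FPKM in 2 of 9 cases (Nr1h3 and Id3), alveolar macrophage markers in 3 of 9 (Fabp4, Pparg and Marco), microglia markers in 1 of 10, peritoneal markers in 1 of 8 (Icam2) and red pulp markers in 1 of 6 (Hmox1). The defining genes were at or near 0, with Clec4f and Vsig4 of Kupffer cells, Car4, Ear1, Chil3 and Krt79 of the lung, Sall1, Siglech and Fcrls of microglia, Lyve1 and Fn1 of the peritoneum and Vcam1 of red pulp listed at 0. Olfml3, a microglia gene, had 0.356, 2.90, 2.48, 1.07 and 1.09 FPKM, so that the microglia count was 2 without replicate 1. Gata6, the peritoneal factor, averaged 0.00913 FPKM and Spic, the red pulp factor, 0.0996. Monocyte markers reached 1 FPKM in 1 of 12 cases (8.33%), Nr4a1 (1.51, 2.54, 2.44, 3.11 and 2.55 FPKM), and Ly6c1, Ly6c2 and Plac8 were listed at 0. Of the osteoclast list 5 of 12 genes reached 1 FPKM throughout (41.7%), a share near the 43.0% of all genes. RAW264.7 cells are widely used because the ligand RANKL turns them into osteoclasts. The RANKL receptor gene Tnfrsf11a had 5.11, 8.67, 9.21, 6.90 and 6.73 FPKM, the osteoclast factor Nfatc1 6.74, 8.76, 9.02, 9.63 and 10.1 FPKM, the proton pump subunit Atp6v0d2 4.93 ± 1.76, and the fusion genes Dcstamp 1.97 ± 0.294 and Ocstamp 0.254, 1.40, 1.51, 1.05 and 1.05 FPKM. Ctsk stood far above the rest of that list, Mmp9 averaged 0.908 ± 1.07 FPKM and 0.431 ± 0.147 without replicate 1, and Calcr was listed at 0.

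Markers of other cell types were at or near 0 with a few exceptions. The largest share at 1 FPKM throughout was 18.2%, for T lymphocyte markers, beside 43.0% of all genes. No member reached 1 FPKM in all libraries among 8 natural killer, 8 mast cell, 9 fibroblast and 8 epithelial markers, and the summed level of each of these lists stayed below 0.253 FPKM in every library and was 0 in at least 1 library for natural killer, mast cell and epithelial markers. T lymphocyte markers reached it in 2 of 11 cases, Il7r and Cd5, with summed levels of 14.4 to 42.2 FPKM, while Cd3e, Cd3g, Cd8a and Cd8b1 were listed at 0 and Cd3d averaged 0.00569 FPKM. Il7r, the interleukin 7 receptor, was at 34.9 FPKM in replicate 1 and 8.33 to 11.9 in the others, and Cd5 had 6.91, 5.43, 5.66, 6.40 and 6.97 FPKM. B lymphocyte markers reached it in 2 of 12 cases, Blnk and Cd79b, with summed levels of 40.6 to 83.1 FPKM, while Ms4a1, Ebf1, Igll1, Rag1 and Rag2 were listed at 0 and Pax5 averaged 0.000611 FPKM. Blnk, a signalling adaptor, had 73.9, 36.8, 37.5, 43.1 and 41.6 FPKM and Cd79b 8.98, 3.62, 3.84, 4.32 and 4.48 FPKM, both highest in replicate 1. Neutrophil markers had 1 of 11 (Csf3r, 3.73, 2.39, 3.31, 5.76 and 6.65 FPKM), and S100a8 was at 0.583, 1.74, 1.14, 0.877 and 1.30 FPKM with S100a9 listed at 0, and the list summed to 4.23 to 8.07 FPKM. Dendritic cell markers had 1 of 10 (Batf3) and summed to 8.54 to 10.4 FPKM. Erythroid and megakaryocyte markers had 1 of 11 (Pf4, 1.32, 2.76, 2.49, 2.38 and 1.90 FPKM) and summed to 2.0 to 3.01 FPKM. Endothelial markers had 1 of 8 (Vwf, 1.95, 1.41, 1.30, 1.88 and 1.87 FPKM), with Cdh5 at 0.0185 and Kdr at 0.0112 FPKM, and summed to 1.54 to 2.34 FPKM. In such bulk libraries a few cells with much of an RNA and many cells with little of it cannot be told apart. Whether the exceptions come from all cells or from some was not tested.

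The spread between libraries was small for most genes once replicate 1 was set aside. Over genes averaging 1 FPKM or more the median SD of log2(FPKM + 1) was 0.184 with all 5 libraries and 0.0996 without replicate 1. An SD above 0.5 was found for 464 genes (4.71%) with it and 76 without it, and an SD below 0.1 for 1831 genes (18.6%) with it. Replicate 1 was the highest library for 3011 genes and the lowest for 4769, together 79.0% of the 9842. Among genes averaging at least 10 FPKM, the largest SD belonged to Rtp4, a receptor transporter gene induced by interferon, with 0.144, 17.9, 17.7, 14.9 and 15.7 FPKM. Selenbp1, a selenium-binding protein gene, went the other way with 258, 28.7, 32.1, 30.1 and 31.6 FPKM, a mean of 76.1 ± 102 and of 30.6 ± 1.52 without replicate 1. Pakap (33.9 ± 37.6 FPKM, 17.1 ± 2.61 without replicate 1), Rasd2 (17.7 ± 19.9, 8.85 ± 0.903 without) and Insig1, a sterol sensor gene (52.4 ± 52.1, 29.3 ± 8.55 without), were likewise highest in replicate 1, and Cebpd (3.90, 18.2, 20.4, 29.97 and 31.6 FPKM) and Txnip were lowest there. Ddit3, the stress factor CHOP, followed the library pairs with 109, 20.1, 28.2, 118 and 128 FPKM, as Cxcl2 did. Cxcl2 and Ddit3 had the largest SDs of the 10 when replicate 1 was left out, followed by the predicted locus LOC118568312.

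**Figure D5:**
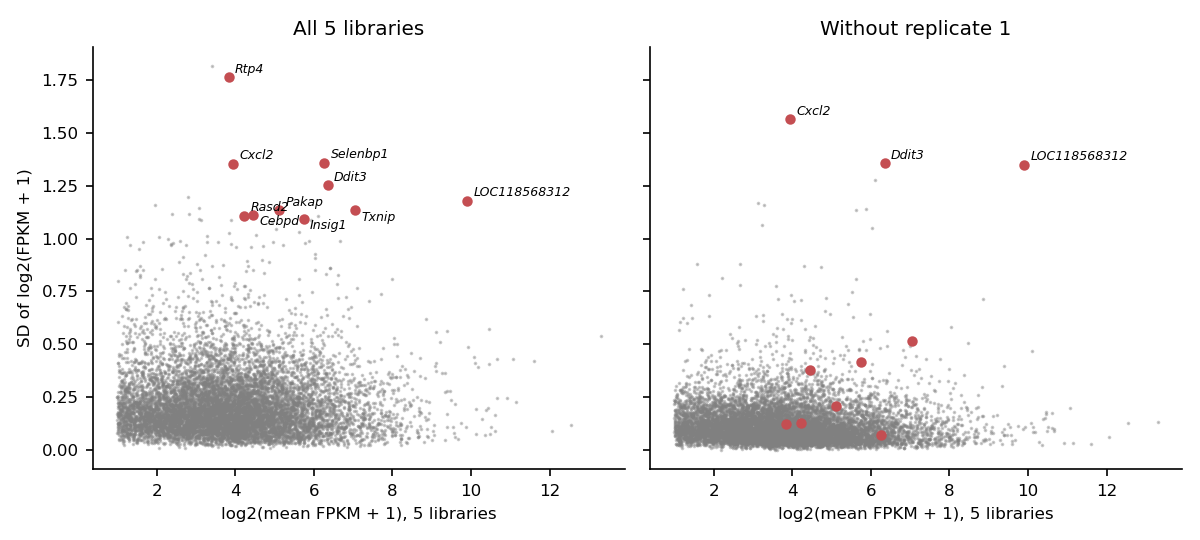
SD of log2(FPKM + 1) against the mean level for genes of at least 1 FPKM, with all 5 medium libraries (left) and without replicate 1 (right); the 10 genes of largest SD among those of at least 10 FPKM are red, and those still above an SD of 1 are named on the right. The median SD falls from 0.184 to 0.0996, and Rtp4 and Selenbp1 drop into the body of the points.

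Among genes of at least 10 FPKM, 10 were named for the smallest SD of log2 FPKM. Dctn6, a dynactin subunit gene, had 28.5, 28.9, 29.0, 28.9 and 28.5 FPKM (mean 28.7 ± 0.253). Sdhb, the iron-sulphur subunit of succinate dehydrogenase, had 112, 114, 112, 114 and 113 FPKM, and Vps33a, a lysosomal tethering factor gene, 24.7, 25.3, 24.8, 24.6 and 25 FPKM, so that all 5 libraries lay close together for each. Taf1 (10.8 ± 0.135 FPKM), Nelfb (25.1 ± 0.303) and Trrap (14.9 ± 0.234) of the transcription machinery, the mitochondrial genes Micu2 (38.4 ± 0.470) and Yme1l1 (30.003 ± 0.397), Rap1a (55.4 ± 0.707) and Sacm1l (20.7 ± 0.311) made up the 10. These 10 were picked for their small spread, so other genes at that level are less even by construction. The 14 common reference genes had a median SD of log2(FPKM + 1) of 0.204. Over all genes averaging 1 FPKM or more it was 0.184. Gapdh spanned 2557 to 5031 FPKM, Actb 1114 to 1520.0, B2m 386 to 423, Hprt 109 to 148 and Tbp 11.6 to 15.2 FPKM.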

How the data were processed

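Per the labels' protocols, oligo(dT) beads captured mRNA of RAW264.7 cells kept in medium, and its fragments were copied with random primers. The authors deposited FPKM values for 22186 genes by symbol, 1 column per library. They used GRCm39, per the submitters' processing notes. Aligner, quantifier, annotation and filters are not given in the sources used here. Depth is unknown, so no interval was computed.

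Columns were matched to libraries by library name. Means and SDs, counts of genes at 1 FPKM or more in all 5 libraries, shares of the summed FPKM, and the SD of log2(FPKM + 1) among genes averaging 1 FPKM or more were computed in Python 3.11.15 with numpy 2.4.6 and pandas 2.3.3, and the code was checked on simulated data. There is 1 group, so no comparison between groups was tested, and the gap limit used below serves only to flag outlying libraries. The 52 gene lists, and the choice of these libraries, were made with earlier results of these data known. Named by rule were the 30 most abundant genes, the 6 highest members of each list and its members listed at 0, all members of 6 central lists, and the 10 largest and 10 smallest SDs among genes averaging at least 10 FPKM, without predicted gene models (symbols of Gm and a number, or ending in Rik). Other genes were named after their values were seen, as were the ribosomal, X-linked and mitochondrially encoded sets. Of the listed symbols, 3 were matched by another symbol (Emr4 as Adgre4 and Rigi as Ddx58 among them) and 6 were not analysed here (Cxcl11, H2-L, Tpsab1, Xist, Tsix, Hprt1). Promoters came from RefSeq on GRCm38.p6, another build than that of the values, and were matched by symbol.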

Additional observations from a re-analysis of the deposited data

Results flagged for a closer look

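Within the 5 medium libraries, 31 of 79 results examined (39.2%) had a highest or lowest library whose gap to its nearest neighbour took up more than 0.71 of the whole range, a limit that chance passes in about 1 in 20 groups. For genes the gap and range were taken on log2(FPKM + 1), and for the share in the 10 most abundant genes on percent. In 30 of the 31 the outlying library was replicate 1, 20 times as the highest and 10 times as the lowest, and over all genes averaging 1 FPKM or more the limit was passed by 2239 (22.7%), 2180 of them with replicate 1 outlying. The 79 included genes named for their level or spread in these libraries, so the 39.2% is not to be read against the chance rate. Genes of a library are not independent, which limits the 22.7% as well. The cause was not tested.

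Replicate 1 was the highest library, with this gap as a share of the range, for Selenbp1 (0.951), Gapdh (0.925), Hmox1 (0.861), Pycard (0.856), Nos2 (0.848), Pkm (0.841), Irf8 (0.821), Ctsd (0.811), Fth1 (0.804), Acod1 (0.803), Cd68 (0.803), Slc2a1 (0.783), Cd79b (0.780), Blnk (0.774), Mif (0.762), Arg1 (0.760), Il7r (0.758), Lgals3 (0.737) and Insig1 (0.715). It was the lowest for Rtp4 (0.937), Cd14 (0.906), Spi1 (0.906), Ccl9 (0.898), Acp5 (0.862), Tlr2 (0.857), Tlr4 (0.833), H2-D1 (0.799), Tnf (0.792) and Trp53 (0.770). For Gapdh the values were 5031 FPKM against 2557 to 2690.5, for Nos2 53.5 against 10.02 to 13.1, and for Spi1 106 against 166 to 174. The share of the summed FPKM in the 10 most abundant genes passed the limit for the same library (0.848; 13.96% against 8.55% to 9.37%). The remaining result was the predicted locus LOC118568312 (0.847), where replicate 3 held 2879.9 FPKM and the others 412 to 555.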

How the results depend on the processing

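The number of expressed genes was 8764 at a level of 2 FPKM, 10025 at 0.5 FPKM and 9842 by the mean, and 9539 to 9639 with a library left out, all within 1.5 times of 9532. The median SD of log2(FPKM + 1), 0.184, was 0.137 with no filter on low values and ranged from 0.0997 (without replicate 1, over the genes that then averaged 1 FPKM) to 0.197 with a library left out. A pseudocount of 0.1 and rescaling to the same sum kept this median within the same limit. Each alternative tried for the share in the 10 most abundant genes kept it within 1 SD, but rescaling cannot change a share. Of 395 alternative gene means none moved by more than 1 SD, a limit that replicate 1 itself widens. Each of them left out 1 library, which cannot move a mean by that much, so this limit could not be passed. The shares with a library left out are limited in much the same way. Of 180 alternative counts for 60 single lists, 15 moved by more than 1.5 times, 6 at 0.5 FPKM, 6 at 2 FPKM and 3 without replicate 1 (chemoattractant receptors 7 in place of 2, microglia markers 2 in place of 1, mitochondrial ribosomal symbols 17 in place of 10). No paired analysis was possible because the results describe 1 group and come from no test. Limits are the unknown depth, the unstated counting of reads shared by near-identical genes, the low values of genes with ribosomal symbols, and a replicate 1 that sets much of the spread, with no batch label to examine. Poly(A) selection also leaves out RNAs without a tail.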

Other observations

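Families of sensory receptors, defensins and keratins were listed at 0 for most members. Of 1109 olfactory receptor genes 1039 were listed at 0 in all 5 libraries and 0 reached 1 FPKM in every library. Of 354 vomeronasal receptor genes 344 were listed at 0, of 50 taste and trace amine receptor genes 48, of 71 defensin genes 70, and of 54 keratin genes 48. Of 39 Hox genes 28 were listed at 0. Zinc finger genes of the Zfp series (254 of 398) and solute carriers (167 of 375) reached 1 FPKM throughout in 63.8% and 44.5% of cases, beside 43.0% of all genes, and predicted gene models with a Gm number in 33 of 1458 cases.

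Of 16 eicosanoid genes 9 reached 1 FPKM throughout (56.2%, beside 43.0% of all genes). Alox5ap, the partner protein of 5-lipoxygenase, had 66, 63.4, 58.5, 54.7 and 55.2 FPKM and the downstream enzyme gene Lta4h 37.7 ± 3.2 (SD, n = 5), while the lipoxygenase gene Alox5 itself averaged 0.00672 FPKM. The prostaglandin branch held Hpgds (44.0, 53.5, 55.4, 52.6 and 52.1 FPKM), the phospholipase Pla2g4a (30.1 ± 5.71), Ptgs1 (19.0 ± 7.43) and Ptges3 (125 ± 31.3). Of 15 purine genes 7 reached 1 FPKM (46.7%, near the share of all genes), led by P2rx4 (17.7, 12.6, 13, 15.8 and 15.1 FPKM), P2rx7, the receptor for extracellular ATP (8.40, 7.32, 7.12, 8.98 and 8.78 FPKM), P2ry2 (7.69 ± 1.47) and P2ry6 (5.10 ± 1.41). Entpd1, which encodes CD39, averaged 1.53 ± 1.27 FPKM and 0.979 ± 0.364 without replicate 1, and Nt5e, which encodes CD73, and Adora1 were listed at 0. Of 28 actin and cytoskeleton genes 27 reached 1 FPKM (96.4%, against 43.0% of all genes). The exception was Fscn1, the bundling protein of dendritic cells, with 0.117, 0.181, 0.0945, 0.107 and 0.153 FPKM.

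Promoter composition differed between classes of level. In the 250 bases before the start the median number of CG dinucleotides was 2 for genes listed at 0, 6.5 for genes above 0 and below 0.1 FPKM, 9.5 for 0.1 to 1 FPKM, and 16.0 to 17.0 for the classes from 1 FPKM upward. The string TATAAA lay in 22.6% of promoters of genes listed at 0, 7.32% at 1 to 10 FPKM, 6.45% at 10 to 100 FPKM, 11.0% at 100 to 1000 FPKM and 4 of 17 at 1000 FPKM or more, against 13.7% of all. CACGTG lay in 4.26% of promoters of genes listed at 0 and in 14.3% of those at 100 to 1000 FPKM. GGGCGG lay in 20.3% of promoters of genes listed at 0 and in 64.9% to 70.6% of those from 1 FPKM upward, and CCAAT in 37.3% to 47.1% of every class. The macrophage identity genes held a median of 4 CG (19 genes with a promoter), against 19 for proliferation genes (21 genes), whose promoters held CCAAT in 16 of 21 cases. The motifs were searched on both strands and the shares are descriptions over genes that are not independent. Whether genes with several annotated starts shift these shares between classes was not tested.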
